A study of Mus musculus with 9 samples.

Results

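The enzymes described here are 9 liver genes that break down the aromatic amino acids: Tat, Hpd, Hgd and Fah of the tyrosine branch, and Tdo2, Afmid, Kmo, Kynu and Haao of the tryptophan branch. They were taken by gene symbol from a count table of 23337 genes, all 9 were found, and all 9 were among the 13141 genes with enough reads to be tested. Poly(A) RNA of whole liver had been sequenced from 9 C57BL/6 mice that were 6 to 8 weeks old when a high-fat diet began and that stayed on it for 16 weeks, so every group shared the diet. The groups of 3 mice were PAR2dHep (dHep), described as knocked out for protease-activated receptor 2 in hepatocytes, PAR2 KO (KO), described as knocked out in the whole body, and PAR2fl/fl (WT), which carry floxed alleles of the receptor gene F2rl1. The labels name no Cre driver and no sex, and the whole-body group has no control other than the floxed mice. The receptor is a membrane protein that serine proteases activate by cleavage, and the title of the series links it with dyslipidaemia, fatty liver and HNF4A, a transcription factor of hepatocytes.

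In the liver, phenylalanine is broken down by way of tyrosine, and tyrosine goes on to fumarate and acetoacetate, which feed energy metabolism. Tryptophan that is not used for protein is mostly opened by a liver dioxygenase into kynurenines, and this route can end in complete oxidation or in the synthesis of NAD. Both routes are largely hepatocyte pathways, and inherited loss of their tyrosine enzymes causes human diseases that include the tyrosinaemias and alkaptonuria.

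The tyrosine branch runs in the order Tat, Hpd, Hgd, Fah. Tat, on chromosome 8 from 109990436 to 109999804 in mm10, encodes tyrosine aminotransferase, the entry step and a classical glucocorticoid-induced liver gene. Hpd, on chromosome 5 from 123171807 to 123182686, encodes the dioxygenase that makes homogentisate. Hgd, on chromosome 16 from 37580153 to 37632026, encodes the dioxygenase that opens the homogentisate ring. Fah, on chromosome 7 from 84585159 to 84605942, encodes fumarylacetoacetase, the last step.

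The tryptophan branch runs in the order Tdo2, Afmid, Kmo, Kynu, Haao. Tdo2, on chromosome 3 from 81958414 to 81975728, encodes tryptophan dioxygenase, the entry step. Afmid, on chromosome 11 from 117825919 to 117839908, encodes the formamidase that releases kynurenine. Kmo, on chromosome 1 from 175632193 to 175660853, encodes kynurenine 3-monooxygenase, a mitochondrial flavoprotein. Kynu, on chromosome 2 from 43555329 to 43682715, encodes kynureninase, which makes 3-hydroxyanthranilate. Haao, on chromosome 17 from 83831354 to 83846790, encodes the dioxygenase that opens that ring and yields the precursor of quinolinate.

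Because some of these genes were called different between the groups by the test described below and others were not, the promoters of both kinds are shown. RefSeq promoter sequences (GRCm38.p6) were at hand for 8 of the 9 genes, Kynu being the one without an entry. The 150 bases before the RefSeq start of the gene, which for Hpd lies upstream of the start in the positions above, are given 5′ to 3′ on the strand of the gene. They are shown for 3 genes that were called against WT in both dHep and KO (Hpd, Fah, Haao) and for 2 that were called in neither (Tdo2, Kmo). Afmid was also called in both, but its window lies within the first exon of a neighbouring gene, and it is not shown. Capitals mark matches, on either strand, to the motifs listed after them.
Hpd, chr5:123182724-123182873, minus strand: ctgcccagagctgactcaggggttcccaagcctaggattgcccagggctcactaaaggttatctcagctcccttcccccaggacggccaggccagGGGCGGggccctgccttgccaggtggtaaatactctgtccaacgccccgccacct
Fah, chr7:84605943-84606092, minus strand: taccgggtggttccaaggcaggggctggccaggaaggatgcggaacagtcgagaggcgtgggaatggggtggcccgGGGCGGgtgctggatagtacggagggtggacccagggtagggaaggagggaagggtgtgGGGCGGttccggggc
Haao, chr17:83846791-83846940, minus strand: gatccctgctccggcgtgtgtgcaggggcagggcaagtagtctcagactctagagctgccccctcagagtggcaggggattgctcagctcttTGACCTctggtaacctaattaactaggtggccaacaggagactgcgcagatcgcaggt
Tdo2, chr3:81975729-81975878, minus strand: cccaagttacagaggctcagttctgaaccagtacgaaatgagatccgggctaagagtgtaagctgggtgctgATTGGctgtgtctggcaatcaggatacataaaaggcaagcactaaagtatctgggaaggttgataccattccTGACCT
Kmo, chr1:175632043-175632192, plus strand: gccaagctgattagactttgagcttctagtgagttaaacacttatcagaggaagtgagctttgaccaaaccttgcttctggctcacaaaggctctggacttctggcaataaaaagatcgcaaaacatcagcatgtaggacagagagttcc

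The search covered both strands of the 250 bases before each start, in the 8 promoters and in all 32851 promoters of the table. The GC box GGGCGG was found in Hpd, Fah and Afmid, and in 32.7% of all promoters. The nuclear receptor half-site AGGTCA, which reads TGACCT on the other strand, was found in Hgd, Tdo2 and Haao, and in 14% of all promoters. A CCAAT box (CCAAT) was found in Tat, Hgd and Tdo2, and in 33.8% of all. Of the other motifs, TATAAA (12.4% of all) was found in Hgd and Tdo2, the forkhead motif TGTTTNC (17.8%) in Tdo2 and the C/EBP motif TTGCNNAA (9.56%) in Hgd. Strict forms of 4 other motifs had no match in the 8 promoters: HNF4A (CAAAGTCCA, 0.384% of all promoters), the glucocorticoid receptor (0.387%), STAT (TTCNNNGAA, 7.02%) and PAR bZIP factors (TTATGTAA, 0.819%). Kmo held a match to none of the 10 motifs. The motifs did not overlap each other in the printed stretches, and a match describes letters only, not a bound site.

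Between 18683660 and 30509242 reads were assigned to genes per library, with replicate correlations of log2 CPM (reads of a gene per 1000000 reads, with library sizes scaled by TMM, a normalization over all genes) of 0.949 to 0.974 in dHep, 0.974 to 0.989 in KO and 0.984 to 0.991 in WT, across genes. F2rl1, which checks the labels, had 2, 8 and 0 reads in dHep, 71, 103 and 76 in KO and 17, 27 and 28 in WT. It was thus lower in dHep than in WT (log2 fold change -2.73 ± 0.66 SE, edgeR adjusted p 0.0164) but higher in the KO libraries than in WT (2.22 ± 0.51, adjusted p 0.00735), which goes against their label if the counted exons are the deleted ones; the deleted part is not given in the sources used here. These livers are therefore called the livers labelled KO throughout, and every direction drawn from them rests on that label. Hepatocyte markers were high everywhere, with 5 genes such as Alb summing to 97608 to 142915 CPM in dHep, 94517 to 106797 CPM in KO-labelled and 91522 to 96267 CPM in WT livers. A pair of libraries stood apart: 10 pancreatic acinar genes summed to 1439 CPM in dHep replicate 2 and 369 CPM in WT replicate 1 but to at most 5.25 CPM elsewhere, and 7 skeletal muscle genes summed to 550 CPM in dHep replicate 2 and to at most 46.6 CPM elsewhere. Counts of the enzymes, of the pathway lists and of some marker lists in dHep against WT are also given without both.

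Per length, the 9 enzymes covered a wide range. In RPKM (the TMM-scaled CPM per kilobase of exon), averaged over the 9 libraries, Hpd stood at 1403 RPKM and ranked 43 among all genes of the table. Tdo2 followed at 1235 RPKM, and the ranges of both over the libraries overlapped (681 to 2485 RPKM for Hpd and 859 to 1519 RPKM for Tdo2). Their order depended on the group: Hpd averaged 2102 RPKM and Tdo2 1175 RPKM in dHep livers, 1327 and 1361 RPKM in KO-labelled livers, and 780.2 and 1167 RPKM in WT livers. Fah, Hgd, Tat and Haao formed a middle group at 440, 424, 392 and 357 RPKM, whose ranges over the libraries overlapped each other. Kmo stood at 185 RPKM, Kynu at 84.3 RPKM and Afmid, the least abundant, at 42.3 RPKM, which still ranked 1424 of 23337. Among these lower genes, the range of Kmo (147 to 223 RPKM) did not touch that of Kynu (55.1 to 104 RPKM), while the ranges of Kynu and Afmid (16.0 to 83.7 RPKM) overlapped.

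In dHep livers all 4 genes of the tyrosine branch were called higher than in WT livers, and so were Afmid and Haao of the tryptophan branch, while Tdo2, Kmo and Kynu did not pass the test. The call of Tat ended under 6 and that of Hgd under 13 of the 18 alternatives described below. Of the 9 enzymes, 6 were called higher and 0 lower at an edgeR adjusted p under 0.05. Over all genes tested, 24.3% were called in this comparison, 12.4% higher and 11.9% lower. The same 6 enzymes had every dHep liver above every WT liver, where the groups did not overlap for 20.8% of all genes upward and 22.6% downward. The median log2 fold change of the 9 was 0.84, against 0.02 over all genes tested. Without dHep replicate 2 and WT replicate 1 together, 4 of the 9 were called higher (Hpd, Fah, Afmid, Haao) with a median of 0.88. In that setting 21.6% of all genes tested were called in either direction. The groups are bulk livers, in which fewer cells of a type and less RNA per cell cannot be told apart.

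Hpd, the dioxygenase of the tyrosine branch, had 2501, 2710 and 3386 CPM in dHep livers, against 1115, 1148 and 928 CPM in WT livers. Every dHep liver was more than 1000 CPM above every WT liver. The log2 fold change was 1.43 ± 0.16 SE (2.69-fold, edgeR adjusted p 0.000771), the largest change of the tyrosine branch. Fah, the last step, had 680, 818 and 1049 CPM in dHep, against 486, 493 and 444 CPM in WT. The groups did not overlap, and dHep replicate 3 was the highest, as it was for Hpd. The log2 fold change of Fah was 0.84 ± 0.16 (1.79-fold, adjusted p 0.00621).

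Tat, the entry step, had 1120.3, 1246 and 1374 CPM in dHep livers, against 614, 721 and 591 CPM in WT livers. All 3 dHep livers lay above all 3 WT livers, and the log2 fold change was 0.96 ± 0.26 (edgeR adjusted p 0.0270). That call ended when 1 of several libraries was left out: the adjusted p was 0.0842 without WT replicate 1, 0.0662 without WT replicate 2, 0.104 without WT replicate 3 and 0.0663 without dHep replicate 3. Hgd, which opens the homogentisate ring, had 789, 735 and 999.7 CPM in dHep, against 604, 662 and 609 CPM in WT. The groups again did not overlap, but the change was the smallest of the branch, at 0.43 ± 0.14 (adjusted p 0.0480). The call of Hgd ended under 13 of 18 alternatives, among them the omission of WT replicate 1 (0.140), WT replicate 2 (0.105), WT replicate 3 (0.151), dHep replicate 3 (0.0838), KO replicate 1 (0.0634), KO replicate 2 (0.0718) or KO replicate 3 (0.0735).

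Afmid, the formamidase, had 121, 157 and 195 CPM in dHep livers, against 43.7, 45.1 and 37.3 CPM in WT livers. The lowest dHep liver was more than 70 CPM above the highest WT liver. With a log2 fold change of 1.91 ± 0.17 (3.75-fold, edgeR adjusted p 0.000241), Afmid changed most of the 9 under every scaling tried. Haao, at the far end of the branch, had 540.2, 501 and 634 CPM in dHep, against 291, 298 and 270.2 CPM in WT. No dHep liver came near the WT range, and the log2 fold change was 0.96 ± 0.11 (1.95-fold, adjusted p 0.000887).

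The other 3 enzymes of the branch did not pass the test. Tdo2, the entry step, had 2317, 1403 and 2038 CPM in dHep livers, against 2227, 1795 and 1697 CPM in WT livers. The groups overlapped throughout, and dHep replicate 2, one of the libraries with pancreatic and muscle transcripts, was the lowest of all 9. The log2 fold change was 0.01 ± 0.21 (edgeR adjusted p 0.977), and 0.32 (adjusted p 0.215) without dHep replicate 2 and WT replicate 1 together. Kynu had 245, 151 and 216 CPM in dHep, against 233, 226 and 212 CPM in WT, with dHep replicate 2 again the lowest; the log2 fold change was -0.13 ± 0.16 (adjusted p 0.579), and 0.07 without both libraries. Kmo had 412, 428 and 556 CPM in dHep, against 439, 418 and 367 CPM in WT, at 0.19 ± 0.14 (adjusted p 0.348). For these 3 genes a change smaller than the spread between livers remains possible.

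**Figure D1:**
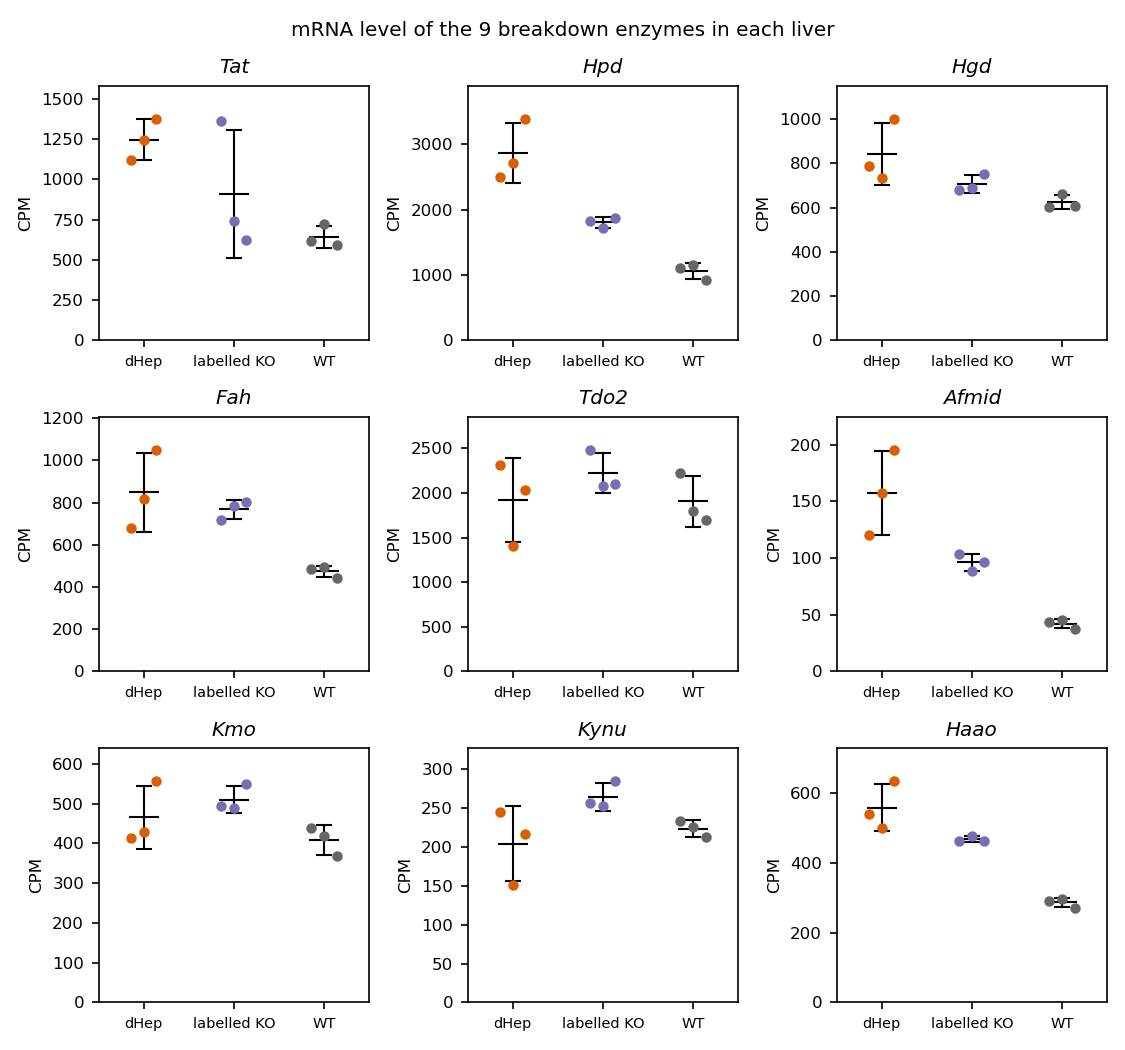
TMM-scaled CPM of each of the 9 enzymes, 1 point per liver, for dHep, KO-labelled and WT livers (3 each), with the mean and SD as bars and every axis starting at 0. Afmid, Hpd and Haao separate the 3 groups in the order dHep, KO-labelled, WT, with Hpd averaging 2866, 1809 and 1063 CPM. The points of Tdo2 overlap, and 1 KO-labelled liver stands above the others for Tat.

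Some markers of other liver cells also differed between dHep and WT livers. Over all genes tested, 11.9% were called lower and 12.4% higher in this comparison. The 7 stellate cell and fibroblast markers summed to 299 to 466 CPM in dHep livers, against 563 to 631 CPM in WT livers, with 3 of 7 called lower and 0 higher. The 6 endothelial markers summed to 166 to 226 CPM, against 251 to 280.2 CPM, with 4 of 6 called lower, of which only Tek held under every alternative. Des (1.70) of the stellate and Clec4g (0.12) of the endothelial markers had log2 fold changes above 0 without a call. The 12 macrophage markers summed to 205 to 370 CPM in dHep, against 361 to 465 CPM in WT, ranges that overlapped. Of these, 5 of 12 were called lower (Cd68, Emr1, Gpnmb, Itgax, Trem2). Timd4 (1.03), Marco (0.39) and Vsig4 (0.22) had log2 fold changes above 0, and the rest were below 0, all without a call. The calls of Gpnmb, Itgax and Trem2 held under every alternative, and those of Cd68 and Emr1 did not. Without dHep replicate 2 and WT replicate 1 together, 4 stellate, 3 endothelial and 6 macrophage markers were called lower. In that setting 21.6% of all genes tested were called in either direction. The 6 lymphocyte markers summed to 11.8 to 21.6 CPM in dHep, against 30.5 to 32.8 CPM in WT, with 1 called lower. That sum was led by Ptprc, the gene called (11.4 CPM in dHep and 26.9 CPM in WT livers on average). The median log2 fold change of the lymphocyte list was -0.01. The 5 cholangiocyte markers summed to 43.9 to 56.6 CPM, against 123 to 196 CPM, a sum led by Spp1, the gene called lower (43.4 CPM in dHep and 152 CPM in WT livers on average); the median log2 fold change of that list was 0.26. Of the 5 hepatocyte markers tested, 2 were called higher and 0 lower in dHep, with a median log2 fold change of 0.51. None of the macrophage, stellate or endothelial markers was at 0 in any library, and kidney tubule markers summed to at most 0.115 CPM in any library. The part of these cell markers in the changes of the 9 enzymes was not tested.

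Afmid needs a further value, because it lies head to head with Tk1, the gene of the cytosolic thymidine kinase of DNA synthesis, on the opposite strand, and the first exons overlap. Reads were counted by strand, so that the partners could be told apart as far as the strand of a read is correct. Tk1, which was added after its values were seen, had 17.1, 39.1 and 52.9 CPM in dHep livers, against 8.04, 8.78 and 7.45 CPM in WT livers. It was higher in dHep at 2.17 ± 0.35 (edgeR adjusted p 0.00317) and differed most between the dHep livers themselves, in the same order as Afmid. In the livers labelled KO, Tk1 had 11.4, 7.78 and 9.06 CPM, and its difference from WT did not pass the test (0.22 ± 0.34, adjusted p 0.633), whereas Afmid was called higher there. Tdo2 has Ctso 1688 bases away and Kmo has Opn3 1574 bases away, both on the opposite strand without overlap, and the other 6 enzymes have no gene within 5000 bases.

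**Figure D2:**
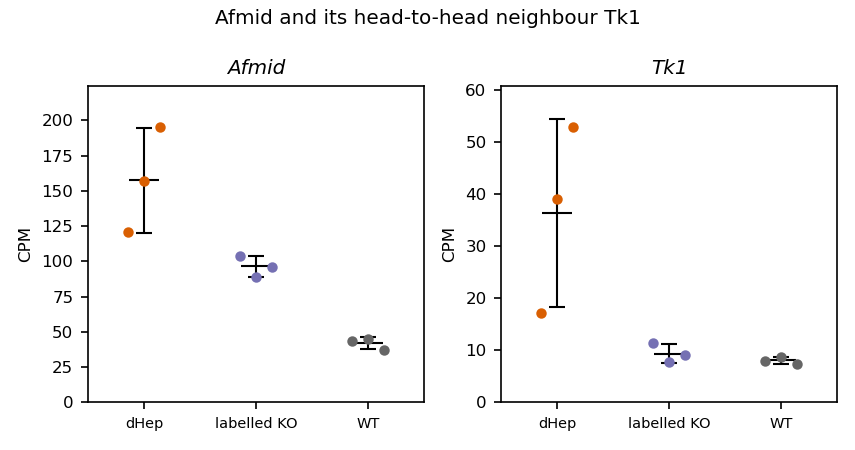
TMM-scaled CPM of Afmid and of its opposite-strand neighbour Tk1, 1 point per liver with the mean and SD as bars, for dHep, KO-labelled and WT livers (3 each). Afmid is above WT in both other groups, whereas Tk1 is above WT in dHep, averaging 36.4 CPM in dHep, 9.40 CPM in KO-labelled and 8.09 CPM in WT livers.

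In the livers labelled KO, Hpd, Fah, Afmid and Haao were higher than in WT livers, and the other 5 enzymes did not pass the test. Of the 9, 4 were called higher and 0 lower by edgeR, in a comparison in which 43.0% of all genes tested were called, 20.9% higher and 22.1% lower. The share of the 9 called was thus near that of all genes called in either direction. The median log2 fold change of the 9 was 0.50, against -0.01 over all genes tested. In 7 of the 9, every KO-labelled liver was above every WT liver, as was so for 32.4% of all genes, with 33.8% the other way round. Without dHep replicate 2 and WT replicate 1 together, 4 were called again, with a median of 0.47. In that setting 38.3% of all genes tested were called in either direction. The comparison shares its WT livers with that of dHep, so the calls of both are not independent of each other.

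Hpd had 1835, 1718 and 1872 CPM in the livers labelled KO, against the WT values above, and lay above WT in 3 of 3 livers. Its log2 fold change was 0.77 ± 0.16 (1.70-fold, edgeR adjusted p 0.00500). Fah had 718, 784 and 803 CPM there, a change of 0.69 ± 0.16 (1.62-fold, adjusted p 0.00721). Both genes varied little between the KO-labelled livers, and neither range touched that of WT.

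Afmid had 104, 88.9 and 96.3 CPM in the livers labelled KO, more than 40 CPM above the highest WT liver. The log2 fold change was 1.20 ± 0.16 (2.29-fold, edgeR adjusted p 0.000747). Haao had 463, 478 and 462 CPM, which was the tightest group of any enzyme, and changed by 0.71 ± 0.11 (1.63-fold, adjusted p 0.00143). These 4 calls held under all 18 alternatives.

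Tat had 1362, 742 and 624 CPM in the livers labelled KO. The first of these livers was as high as the dHep livers and the others lay within or close to the WT range, so that the group overlapped WT and spread more than any other (coefficient of variation 43.6%). The log2 fold change was 0.50 ± 0.26 (edgeR adjusted p 0.144). Hgd had 680.2, 687 and 753 CPM, all above WT, but the change of 0.18 ± 0.14 did not pass the test (adjusted p 0.316), and it was -0.01 with library totals in place of TMM. Tdo2 had 2481, 2082 and 2105 CPM, overlapping WT, at 0.22 ± 0.21 (adjusted p 0.406). Kmo had 493, 488 and 548 CPM and Kynu 256, 252 and 284 CPM, each above every WT liver. Their changes were 0.32 ± 0.14 (adjusted p 0.0895) for Kmo and 0.24 ± 0.16 (adjusted p 0.246) for Kynu. Kmo passed without dHep replicate 3 (0.32, adjusted p 0.0260). Both genes passed by limma voom (adjusted p 0.00617 for Kmo and 0.0254 for Kynu). They also passed with only the groups compared in the edgeR fit (0.0170 for Kmo and 0.0254 for Kynu). Each of those alternatives called 6 of the 9 enzymes. That is near the share of all genes tested, of which limma voom called 62.4% and the fit of only the groups compared 58.3%.

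**Figure D3:**
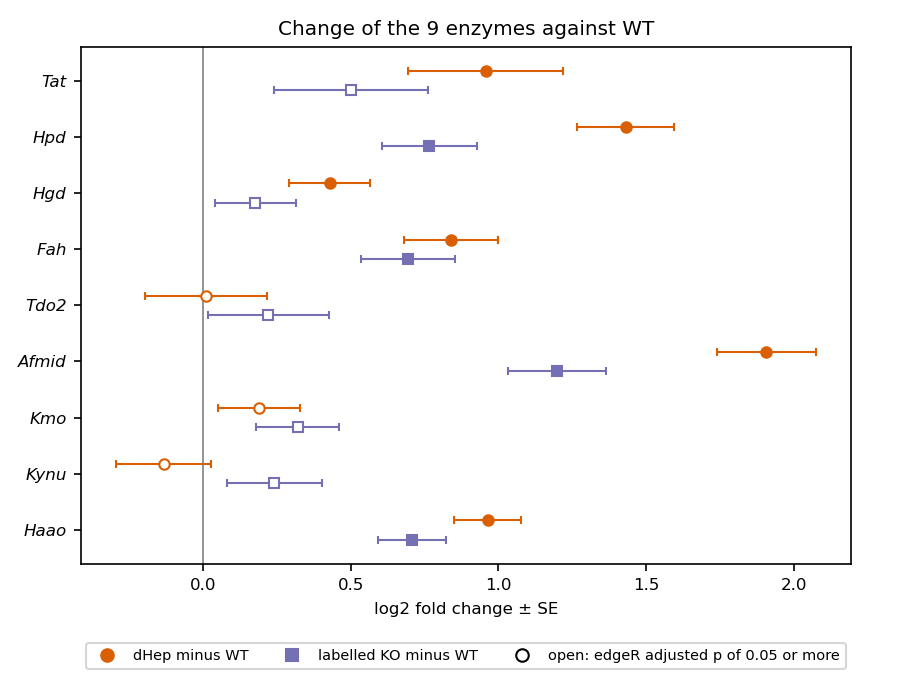
log2 fold change ± SE of the 9 enzymes, from Tat at the top to Haao at the bottom, for dHep minus WT and KO-labelled minus WT, with filled symbols for an edgeR adjusted p under 0.05. Afmid lies farthest to the right in both comparisons (1.91 in dHep and 1.20 in KO-labelled livers), and Tdo2, Kmo and Kynu are open in both.

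Macrophage, stellate cell and endothelial markers were called lower in the livers labelled KO as well, while cholangiocyte markers were not lower as a list. Over all genes tested, 22.1% were called lower and 20.9% higher in this comparison. The 12 macrophage markers summed to 85.5 to 163 CPM in KO-labelled livers, against 361 to 465 CPM in WT livers, with 8 of 12 called lower and 0 higher. The 7 stellate cell and fibroblast markers summed to 245 to 332 CPM, against 563 to 631 CPM in WT, with 6 of 7 called lower, and the 6 endothelial markers to 122 to 170 CPM, against 251 to 280.2 CPM in WT, with 5 of 6 called lower. Des, the stellate marker without a call, had a log2 fold change of 0.71. The 6 lymphocyte markers summed to 7.14 to 8.45 CPM in KO-labelled livers, with 3 called lower, against 30.5 to 32.8 CPM in WT livers. The 5 cholangiocyte markers summed to 68.7 to 116 CPM, against 123 to 196 CPM in WT, with Sox9 called higher (1.09 ± 0.23) and Spp1, which led the sum, lower (adjusted p 0.0105), and had a median log2 fold change of 1.09. Of the 5 hepatocyte markers, 2 were called higher, with a median log2 fold change of 0.54. Their part in the changes of the enzymes was not tested.

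Set directly against dHep livers, the livers labelled KO had less Hpd and Afmid. Of the 9 enzymes, 0 were called higher and 2 lower, where 9.62% of all genes tested were called, 4.23% higher and 5.39% lower. The median log2 fold change of the 9 was -0.25, against -0.02 over all genes. Hpd averaged 1809 ± 80.4 CPM in KO-labelled livers and 2866 ± 463 CPM in dHep livers (SD, n = 3 each), and the ranges did not overlap. Its log2 fold change was -0.66 ± 0.16 (edgeR adjusted p 0.0337). Afmid averaged 96.4 ± 7.48 CPM in KO-labelled livers and 158 ± 37.3 CPM in dHep livers, again without overlap, at -0.71 ± 0.16 (adjusted p 0.0275).

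Both calls were fragile. The call of Hpd ended without KO replicate 1 (adjusted p 0.0792), KO replicate 2 (0.120), KO replicate 3 (0.106), WT replicate 1 (0.0570), WT replicate 2 (0.0638) or WT replicate 3 (0.0534), and that of Afmid without dHep replicate 2 (0.0589), KO replicate 2 (0.105), KO replicate 3 (0.0962) or WT replicate 2 (0.0524). Without dHep replicate 2 and WT replicate 1 together, 0 of the 9 enzymes were called by edgeR (Hpd 0.0730, Afmid 0.0918), where 3.76% of all genes were called. In the tyrosine branch, Tat, Hgd and Fah had log2 fold changes of -0.46 ± 0.26, -0.25 ± 0.14 and -0.14 ± 0.16, and none of these passed. Tat passed, at -0.86 (adjusted p 0.0235), without KO replicate 1, its highest KO-labelled liver. In the tryptophan branch, Tdo2, Kmo and Kynu stood at 0.21 ± 0.21, 0.13 ± 0.14 and 0.37 ± 0.16, and Haao at -0.26 ± 0.11. Kynu was higher and Haao lower in every KO-labelled liver than in every dHep liver, without passing the test (adjusted p 0.162 and 0.174), and groups stood apart in this way for 13.9% of all genes upward and 12.7% downward.

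Summed per length, the tyrosine branch came to 3655 ± 582 RPKM in dHep livers, 2608 ± 152 RPKM in KO-labelled livers and 1716 ± 141 RPKM in WT livers (SD, n = 3 each). The 3 ranges did not overlap, at 3197 to 4309 RPKM in dHep, 2470 to 2771 RPKM in KO-labelled and 1566 to 1845 RPKM in WT livers. The tryptophan branch came to 1960 ± 345 RPKM in dHep, 2085 ± 130 RPKM in KO-labelled and 1665 ± 196 RPKM in WT livers, and there the range of dHep (1562 to 2167 RPKM) overlapped both others. Sums of this kind are led by their most abundant member, Hpd in the first branch and Tdo2 in the second.

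The makeup of the 9 therefore differed between the groups. Hpd made up 37.4% ± 2.84 of the summed RPKM in dHep livers, 28.3% ± 1.43 in KO-labelled livers and 23.1% ± 1.16 in WT livers. Tdo2 made up 21.0% ± 4.88 in dHep, 29.0% ± 1.26 in KO-labelled and 34.5% ± 2.99 in WT livers. The lowest Hpd share of a dHep liver, 34.2%, was above the highest of a WT liver, 24.4%, and the highest Tdo2 share of a dHep liver, 26.5%, was below the lowest of a WT liver, 31.8%. Afmid made up 1.20% ± 0.205 in dHep, 0.880% ± 0.0219 in KO-labelled and 0.533% ± 0.0234 in WT livers. Shares sum to a whole, so a rise of Hpd alone lowers the others.

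**Figure D4:**
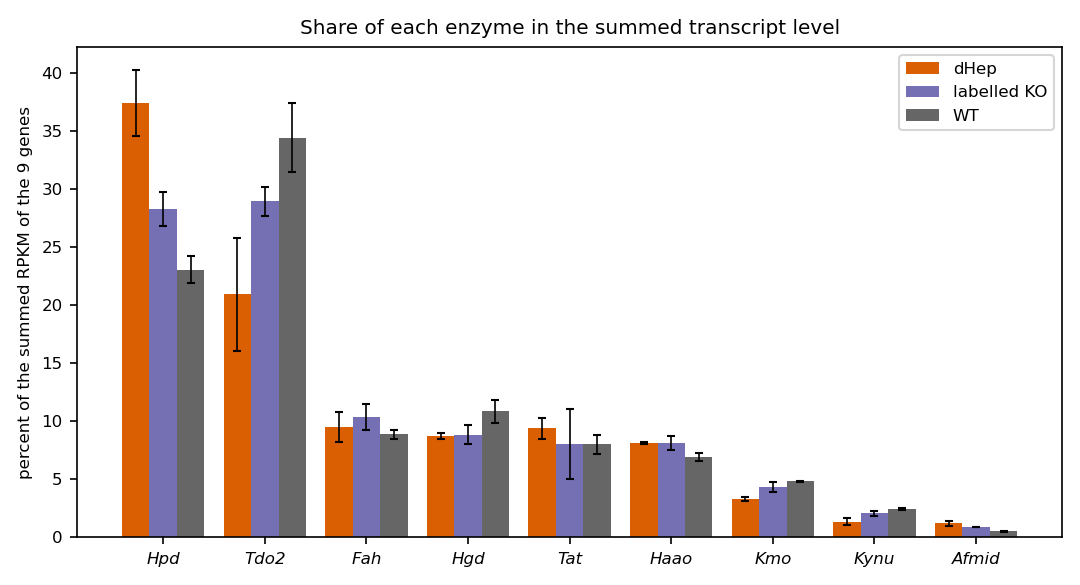
Share of each enzyme in the summed RPKM of all 9, in percent, as group means with the SD as error bars (3 livers each), in the order dHep, KO-labelled, WT for each gene. Hpd is the largest share in dHep livers (37.4%) and Tdo2 the largest in WT livers (34.5%), with the KO-labelled livers between them.

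Other genes of the same pathways were read from lists of known enzymes. Of 11 other phenylalanine and tyrosine genes tested in dHep against WT, 6 were called higher and 0 lower by edgeR, with a median log2 fold change of 0.49. Counts of this list and of those that follow stand beside the 24.3% of all genes called in dHep against WT and the 43.0% called in the livers labelled KO against WT. Without dHep replicate 2 and WT replicate 1 together, these shares were 21.6% and 38.3%. Got1, the cytosolic aspartate aminotransferase, had 294, 349.6 and 306 CPM in dHep livers, against 118, 166 and 107 CPM in WT livers, a change of 1.28 ± 0.16 (adjusted p 0.00109). Qdpr, which regenerates a pterin cofactor, was higher at 0.70 ± 0.13. Both calls held under every alternative, and without dHep replicate 2 and WT replicate 1 together the list again had 6 higher and 0 lower. Gstz1, the isomerase between Hgd and Fah, stood at 0.42 ± 0.14 and did not pass (adjusted p 0.0570), although it did by DESeq2 (0.00886), without dHep replicate 1 (0.0469) and without dHep replicate 2 (0.0208).

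Of 13 other tryptophan, kynurenine and NAD genes tested in dHep against WT, 5 were called higher and 1 lower, with a median of 0.37, and 4 and 1 without dHep replicate 2 and WT replicate 1. Acmsd, the decarboxylase that turns the product of Haao away from NAD synthesis, had 26.0, 18.4 and 23.0 CPM in dHep livers, against 9.95, 7.82 and 6.95 CPM in WT livers, a change of 1.45 ± 0.17 (edgeR adjusted p 0.000910). Ccbl1, a kynurenine aminotransferase now also called Kyat1, was higher at 1.44 ± 0.18. Qprt, which takes quinolinate on to NAD, was at 0.39 ± 0.12 (adjusted p 0.0433), a call that ended under 13 of 18 alternatives. Ido2, an indoleamine dioxygenase that can also open tryptophan, was at 0.70 ± 0.17 (adjusted p 0.0168), and its call ended without WT replicate 2 (0.0572) or WT replicate 3 (0.0811). Maoa, a monoamine oxidase, was the gene called lower, at -1.26 ± 0.32, a call that ended without WT replicate 2 (0.0659) or WT replicate 3 (0.0725).

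In the livers labelled KO, 3 of the 11 phenylalanine and tyrosine genes were called higher and 1 lower than in WT, where 43.0% of all genes were called, with a median of 0.30, and 4 and 1 without dHep replicate 2 and WT replicate 1. Got1 stood at -0.04 ± 0.16, with 120.5, 135 and 124 CPM in KO-labelled livers, against 118, 166 and 107 CPM in WT livers. Gch1, the first enzyme of pterin cofactor synthesis, was lower at -0.59 ± 0.14. Gstz1 was at 0.15 ± 0.14 and did not pass. Directly against dHep livers, Got1 (-1.32 ± 0.16) and Gch1 (-1.17 ± 0.14) were lower in KO-labelled livers under every alternative.

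Of the 13 tryptophan, kynurenine and NAD genes, 6 were called higher and 2 lower in the livers labelled KO than in WT, with a median of 0.34, and the counts were the same without dHep replicate 2 and WT replicate 1. Aadat, another kynurenine aminotransferase, had 194, 210.0 and 238 CPM in KO-labelled livers, against 91.4, 91.4 and 91.9 CPM in WT livers, a change of 1.22 ± 0.15 (edgeR adjusted p 0.000465). Ccbl1 was higher at 1.38 ± 0.18 and Ccbl2, its close relative now called Kyat3, lower at -0.82 ± 0.15. Qprt was higher at 0.63 ± 0.12 and Ido2 at 0.67 ± 0.17, the second of these without a call when WT replicate 3 was left out (0.0548). Acmsd stood at 0.38 ± 0.17 and did not pass (adjusted p 0.103), although it did without WT replicate 1 (0.0498). It was lower than in dHep livers, at -1.07 ± 0.17 (adjusted p 0.00740), as was Ccbl2 at -1.04 ± 0.15, and both held under every alternative.

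Among 6 transporters that carry aromatic amino acids, 2 were called higher and 2 lower than WT in dHep livers, and likewise 2 and 2 in the livers labelled KO, with the same counts without dHep replicate 2 and WT replicate 1. Slc43a1, a facilitator of large neutral amino acids, was low in all livers, at 7.67, 9.64 and 9.66 CPM in dHep, 3.80, 4.79 and 4.21 CPM in KO-labelled and 2.52, 2.00 and 1.18 CPM in WT livers. It was higher than WT at 2.24 ± 0.26 in dHep and at 1.17 ± 0.26 in KO-labelled livers. Slc16a10, which transports aromatic amino acids across the hepatocyte membrane, was higher in dHep at 0.82 ± 0.12 and was at 0.40 ± 0.12 in KO-labelled livers (edgeR adjusted p 0.0267), where the call ended without KO replicate 2 (0.0722), KO replicate 3 (0.0659), WT replicate 2 (0.0645) or WT replicate 3 (0.112). Slc7a8, an exchanger of neutral amino acids, had 4.92, 6.14 and 3.19 CPM in dHep, 2.91, 2.17 and 2.37 CPM in KO-labelled and 10.5, 11.4 and 9.34 CPM in WT livers. It was lower in both, at -1.13 ± 0.23 in dHep and -2.06 ± 0.24 in KO-labelled livers.

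A list of 35 enzymes that break down other amino acids gives the wider setting. In dHep against WT, 21 were called higher and 1 lower, with a median log2 fold change of 0.46. In the livers labelled KO, 12 were called higher and 3 lower, with a median of 0.26. Over all genes tested, 24.3% were called in dHep and 43.0% in KO-labelled livers. The share of the list called was thus near that of all genes in KO-labelled livers. Without dHep replicate 2 and WT replicate 1 together, 18 were higher and 1 lower in dHep, and 10 higher and 2 lower in KO-labelled livers. With library totals in place of TMM, 14 were higher and 2 lower in dHep, but 9 higher and 8 lower in KO-labelled livers. Of all genes tested, 21.4% were then called in dHep and 40.2% in KO-labelled livers. Of those calls, 27.7% in dHep and 28.9% in KO-labelled livers were higher. Under that scaling the median of all genes fell below 0, at -0.14 in dHep and -0.20 in KO-labelled livers, and the median of the 35 was 0.31 in dHep and 0.07 in KO-labelled livers.

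Of 14 genes listed as regulators of Tat and Tdo2, 4 were called higher and 0 lower in dHep against WT, and 5 higher and 3 lower in the livers labelled KO. Over all genes, 24.3% were called in dHep and 43.0% in KO-labelled livers, so that the share in dHep was near that of all genes. Without dHep replicate 2 and WT replicate 1 these counts were 2 and 0 in dHep, and 5 and 3 in KO-labelled livers. Hnf4a did not pass in dHep (0.31 ± 0.13, adjusted p 0.105) or in KO-labelled livers (0.32 ± 0.13, adjusted p 0.0692). DESeq2 did call it, with an adjusted p of 0.0335 in dHep and 0.0187 in KO-labelled livers, and in the second of these it also passed by limma voom (0.00398) and by edgeR with only those groups (0.0121), without dHep replicate 2 (0.0351) or without dHep replicate 3 (0.0373). Foxa3, a forkhead factor, was higher in KO-labelled livers at 1.54 ± 0.28 and in dHep at 1.31 ± 0.28, where the call ended without WT replicate 2 (0.0506). Ppargc1a, a coactivator of fasting metabolism, was lower in KO-labelled livers at -1.11 ± 0.20, with 5.56 to 7.89 CPM there, against a WT mean of 13.7 CPM, and the groups did not overlap.

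The profiles of 8 of the enzymes over the 9 libraries were also compared with those of all tested genes averaging at least 1 CPM, by the root mean square difference of centred log2 CPM. Hgd lay nearest to Gstz1, its neighbour in the pathway, at 0.044, but a gene outside the pathway lists was nearly as close, at 0.046. Fah lay nearest to Txn2 (0.06), Kmo to Impa1 (0.07), Haao to 0610005C13Rik (0.07) and Tdo2 to Wdr5b (0.09). Hpd lay nearest to BC024139 (0.13), Tat to Ppard (0.17) and Afmid to Abtb2 (0.19). Among the enzymes themselves, Fah and Haao were closest to each other (0.13) and Tdo2 and Kynu likewise (0.14), and Tat had the least similar nearest partner, Haao, at 0.32. These distances describe 9 libraries that share group means, and carry no test.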

How the data were processed

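Poly(A) RNA of 9 livers was sequenced from stranded libraries. Per the submitters' processing notes, reads were checked with FastQC and aligned to mm10 with HISAT2 2.1.0. The deposited values are read counts per gene, unnormalized, made with featureCounts 1.6.2 at strand setting 2, per the file headers, beside the length of each gene in bases, a value of other kind. Positions come from an mm10 annotation and promoters from RefSeq (GRCm38.p6).

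In R 4.3.3, edgeR 4.0.16 fitted its quasi-likelihood model once to all 9 libraries, with TMM factors (0.883 to 1.10) and a mean per group. filterByExpr (minimum count 10, minimum total 15) left 13141 genes, and Benjamini-Hochberg adjustment ran over all of them (threshold 0.05). The SE is the log2 fold change divided by the square root of F. CPM use TMM-scaled library sizes, and RPKM are those CPM per kilobase. With 3 against 3 libraries an exact permutation test cannot go below a two-sided p of 0.1, and p measures only the spread between these samples. Profiles used log2 of CPM plus 0.01.

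The 17 alternatives were median-of-ratios size factors, DESeq2 1.42.0, limma 3.58.1 voom with quality weights, no filter, at least 1 CPM in 3 libraries, only the groups compared, a replicate block, each library left out, and both libraries with pancreatic transcripts left out together (WT replicate 1, dHep replicate 2). The pair left out together was picked by pancreatic transcripts seen in these same libraries. Library totals without TMM were added after the data were seen. Named genes were all members, called list genes, pathway neighbours (Gstz1, Ido2, Acmsd, Qprt) and the gene of nearest profile, with F2rl1 as a check and Tk1 outside the rule. Some cell markers without a call were also named from the marker lists. The members and lists were chosen with earlier results of these data known. Of the marker genes listed, Tf and Ly6g were not matched by symbol. Some genes that this rule names are not reported here.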

Additional observations from a re-analysis of the deposited data

How the results depend on the processing

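Of 486 values (9 enzymes, 3 comparisons, 18 alternatives), 433 kept their direction and their side of the threshold, 37 lost the call, 6 gained it and 10 changed sign. Of the enzymes called, 4 of 6 in dHep against WT, 4 of 4 in KO-labelled livers against WT and 0 of 2 in KO-labelled livers against dHep were called under every alternative. All sign changes were in values without a call, and the cause was not tested. With the replicate block Tdo2 in dHep against WT was at -0.0053, and with library totals at -0.14; leaving out 1 library gave -0.15 (without dHep replicate 1) to 0.19 (without dHep replicate 2), also negative without dHep replicate 3, WT replicate 2 or WT replicate 3. Kynu in dHep against WT was at -0.29 without dHep replicate 1 to 0.047 without dHep replicate 2, and at 0.074 without WT replicate 1 and dHep replicate 2. Hgd in KO-labelled livers against WT was at -0.0086 with library totals, and Fah in KO-labelled livers against dHep at -0.28 without dHep replicate 1 to 0.038 without dHep replicate 3.

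Enzymes called numbered 4 to 6 (dHep against WT), 4 to 5 (KO-labelled against WT) and 0 to 2 (KO-labelled against dHep) when 1 library was left out. Over all genes, leaving out 1 library gave 1359 to 4025 calls in the first comparison, where all 9 libraries gave 3192 (1952 without WT replicate 1, 1438 without WT replicate 2, 1359 without WT replicate 3), 3835 to 6547 in the second (5653 with all 9) and 386 to 2809 in the third (1264 with all 9; 419 without KO replicate 2, 386 without KO replicate 3, 2809 without dHep replicate 3, 807 without WT replicate 1, 692 without WT replicate 2, 722 without WT replicate 3). In the third, 2068 genes were called by DESeq2, 802 by limma voom, 342 with only the groups compared and 495 without WT replicate 1 and dHep replicate 2; the enzymes called were 0 with limma voom, with only the groups compared, with the replicate block and without those libraries. With library totals, calls split into 778 higher and 2029 lower in dHep against WT (1624 and 1568 with TMM) and 1526 and 3763 in KO-labelled livers against WT (2751 and 2902 with TMM), with medians of all genes at -0.14 and -0.20. Same-numbered libraries correlated at -0.272 to 0.0273 in their deviations from the group means, so the numbers were not taken as pairs; the replicate block gave 2781, 5292 and 954 calls. Depth limits F2rl1, with at most 8 reads in dHep, more than the enzymes, with at least 1046 reads per library.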
